A study of Mus musculus with 9 samples.

Results

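The CCN family of matricellular proteins was followed as 5 genes out of the 50600 in the count table, chosen by symbol alone: Cyr61 (now Ccn1), Ctgf (Ccn2), Nov (Ccn3), Wisp1 (Ccn4) and Wisp2 (Ccn5). RNA had been sequenced from 9 mouse libraries in 3 groups of 3 numbered replicates, which came from different mice. In 6 libraries, organoids of wildtype (WT) small intestine, labelled as strain C57BL/6, had spent 24 hr in conditioned medium (cM) mixed with an equal part of concentrated organoid medium. The other 3 were untreated tumoroids, cultures grown from intestinal tumours of Apc1638N/+ mice of mixed strain, which carry 1 mutated copy of the tumour suppressor Apc. The titles of the organoid libraries assign 3 to cM from tumoroids (T-cM) and 3 to cM from WT organoids (WT-cM), but their treatment field names the opposite medium in all 6. Group names follow the titles (T-cM-titled, WT-cM-titled), and every difference between them turns round if the treatment field is the right label. The methods of the study give a mixed background for all mice, so that the strain of the organoids is not settled. Tumoroids and organoids differed at once in genotype, labelled strain, tissue of origin, culture medium and, per the same methods, the age of the mice, so that these cannot be told apart in any comparison with tumoroids. In bulk RNA, fewer cells of a type and less RNA per cell cannot be told apart either.

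CCN proteins are secreted into the matrix around cells, where they bind integrins, heparan sulphate proteoglycans and growth factors rather than forming fibres themselves. They are built from shared modules, including a thrombospondin type 1 repeat like those of thrombospondin 1, and Wisp2 lacks the C-terminal cystine knot of the others. Cyr61 and Ctgf are textbook readouts of the transcriptional coactivators YAP and TAZ, which act through TEAD factors when Hippo signalling is low, and both also respond to TGF-beta and to serum response factor (SRF). Wisp1 and Wisp2 were named as genes induced by Wnt1, and Nov is best known for restraining growth. In the gut, Ctgf and Wisp1 are known mostly from the stroma, which organoid cultures lack.

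Reads counted per library ranged from 16541635 to 25170966, so that 3 reads of a gene, taken here as the least that shows expression, were worth 0.103 to 0.204 CPM (counts relative to library size, scaled by the TMM normalisation of edgeR). This limit and the intervals on read numbers cover counting error only. The summed level of 7 epithelial markers, in TPM (a per-length unit that can be compared between genes), was 12462 to 14216 in tumoroids, 11198 to 15307 in T-cM-titled organoids and 10892 to 12974 in those titled WT-cM. Of these 7 genes, Vil1 and Krt19 were called lower and Krt18 higher in tumoroids against either organoid group. The median log2 fold change of all 16208 tested genes was 0.15 and 0.16 in tumoroids against WT-cM-titled and T-cM-titled organoids. It was 0.25 and 0.27 with upper-quartile scaling, and 0.52 and 0.51 on log2(TPM + 1).

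Cyr61, an integrin ligand that acts in angiogenesis and wound repair, lies on the minus strand of chromosome 3 from 145646976 to 145649981 (GRCm38, Gencode release M21), with 5 exons. Of the 5 members, 1 had a promoter in the RefSeq table used, and it was Cyr61. The 250 bases before its start, chr3:145649986-145650235 on the minus strand (GRCm38.p6), are shown because YAP and TAZ bind DNA through TEAD factors, and the capitals mark the only match to the TEAD core motif GGAATG, read here on the other strand.

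Cyr61 promoter: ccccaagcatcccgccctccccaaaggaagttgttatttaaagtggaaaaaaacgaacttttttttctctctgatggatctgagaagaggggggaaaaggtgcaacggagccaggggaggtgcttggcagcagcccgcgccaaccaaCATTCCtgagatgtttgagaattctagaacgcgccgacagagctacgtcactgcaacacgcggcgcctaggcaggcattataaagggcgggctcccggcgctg

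The match lies 103 to 98 bases before the start. Over 32851 mouse promoter windows of the same length, 12.6% held the TEAD core on either strand, so that 1 match is a common event and shows no binding. The AP-1 motif TGANTCA (6.75% of windows), the TCF motif CTTTGAT (3.21%) and the SRF CArG box (1.47%) had no match in these letters on either strand.

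In the tumoroids, Cyr61 was counted by 949, 1917 and 2640 reads in replicates 1, 2 and 3. In the T-cM-titled organoids it had 43, 19 and 20 reads, and in the WT-cM-titled organoids 29, 22 and 44. Each organoid library thus held some Cyr61 reads, and every tumoroid library lay far above all 6. In CPM the tumoroids stood at 43.0, 71.3 and 90.7, against 1.34 to 1.95 in WT-cM-titled and 1.13 to 2.27 in T-cM-titled organoids, and the organoid groups overlapped. The group means were 68.3 ± 24.0 in tumoroids, 1.63 ± 0.307 in WT-cM-titled and 1.56 ± 0.621 in T-cM-titled organoids (CPM, SD, n = 3). Per length, Cyr61 lay above 85.0%, 92.1% and 93.5% of the tested genes in tumoroids 1, 2 and 3, and above 26.9% to 35.1% of them in the organoids.

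Ctgf, a growth factor-binding matrix protein known for its part in fibrosis, lies on the plus strand of chromosome 10 from 24595442 to 24598683, with 4 exons in its longest coding transcript. It was counted by 324, 1022 and 2051 reads in tumoroids 1, 2 and 3. The T-cM-titled organoids held 17, 5 and 6 reads, and the WT-cM-titled organoids 3, 1 and 9. As for Cyr61, tumoroid 3 was highest and tumoroid 1 lowest, and no organoid library came near them. In CPM the tumoroids stood at 14.7, 38.0 and 70.4 (mean 41.0 ± 28.0, SD, n = 3), a 4.80-fold span that compares with 2.11-fold for Cyr61. The organoids ranged from 0.338 to 0.899 CPM (mean 0.525 ± 0.323, n = 3) in the T-cM-titled group and from 0.0608 to 0.398 CPM (mean 0.208 ± 0.173, n = 3) in the WT-cM-titled group. The 95% exact binomial interval of the single read in WT-cM-titled replicate 2 ran from 0.00154 to 0.339 CPM, so Ctgf was close to the limit of detection there. A non-coding gene on the opposite strand, Gm15270, overlaps Ctgf over 1667 bases. It had 1, 3 and 3 reads in the tumoroids and 0 to 5 in the organoids, and the strand setting of the counting is not given in the sources used here.

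**Figure D1:**
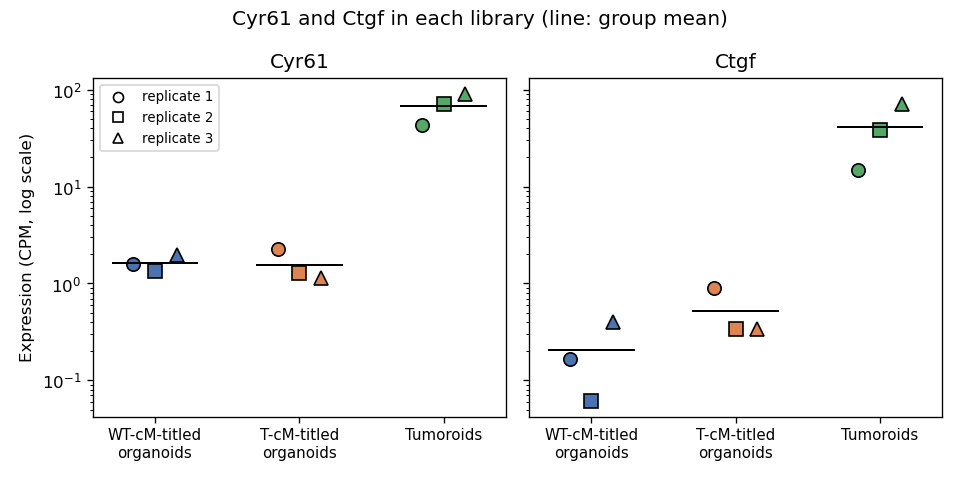
Expression of Cyr61 and Ctgf (CPM, log axis) in each of the 9 libraries, by group, with a symbol for each replicate and a line at the group mean. Tumoroids lie between 43.0 and 90.7 CPM for Cyr61 and between 14.7 and 70.4 CPM for Ctgf, above all organoid libraries, while the organoid groups overlap.

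The remaining members were at or below the limit of detection in nearly every library. Nov had no read in 8 libraries and 11 reads in tumoroid 3 (0.378 CPM, 95% exact binomial interval 0.189 to 0.676). Wisp1 had no read in the 6 organoid libraries and in tumoroid 1, 15 reads in tumoroid 2 (0.558 CPM, interval 0.312 to 0.920) and 7 in tumoroid 3 (0.240 CPM, interval 0.0967 to 0.495). Wisp2 had 0, 0 and 5 reads in the tumoroids, 1, 0 and 2 in the WT-cM-titled and 0, 0 and 2 in the T-cM-titled organoids. Reads of Nov and Wisp1 were thus seen in tumoroids alone, in 1 and 2 of the 3 libraries, and tumoroid 3 was the library with reads of all 3 genes. Wisp3, the family member with no place among the 5, had 1 read in T-cM-titled replicate 3 and none elsewhere.

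**Figure D2:**
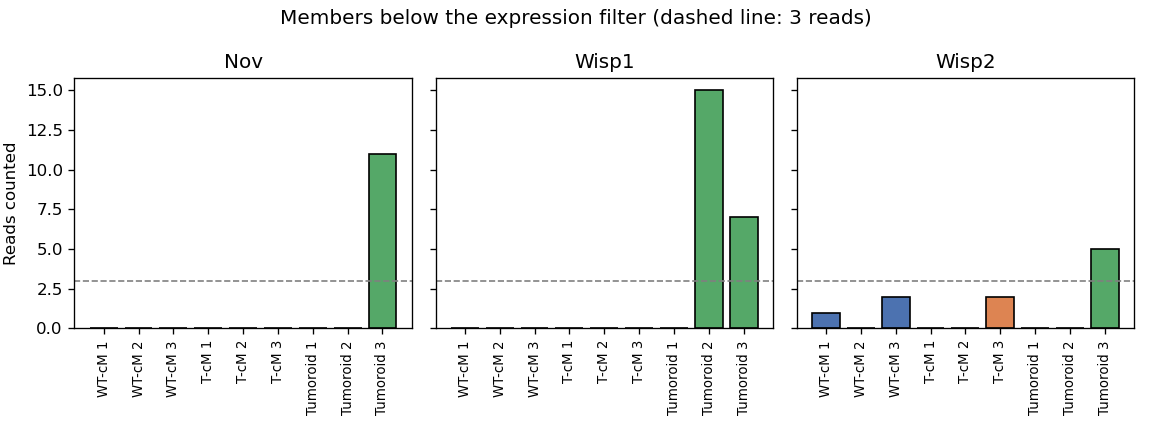
Reads counted for Nov, Wisp1 and Wisp2 in each of the 9 libraries, with a dashed line at the 3 reads taken as the least that shows expression. Only tumoroid 3 (Nov 11, Wisp1 7, Wisp2 5) and tumoroid 2 (Wisp1 15) pass the line.

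These 3 genes had a TPM under 1 in all libraries and were not tested. With no filter on low values, when 25054 genes were tested, the edgeR quasi-likelihood test with Benjamini-Hochberg adjustment gave Wisp1 an adjusted p of 0.058 in tumoroids against WT-cM-titled and 0.061 against T-cM-titled organoids. For Nov the adjusted p was 0.18 and 0.19, and for Wisp2 0.94 and 0.82. The mean of Wisp1 over the tumoroids, 0.266 CPM, was 1.31 times the highest limit of 3 reads in an organoid library (0.204 CPM), while those of Nov (0.126 CPM) and Wisp2 (0.0572 CPM) lay under that limit. No difference in these genes passed the threshold. In Wisp1 the interval of tumoroid 2 lay above those of all organoid libraries, whose upper limits were 0.163 to 0.250 CPM, and tumoroid 1 had no read.

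The levels of the members can be set side by side in TPM. Cyr61 stood first in all 9 libraries, with 69.7, 132 and 161 TPM in tumoroids 1, 2 and 3 and 1.33 to 2.90 TPM in the organoids. Ctgf followed with 16.8, 49.6 and 88.1 TPM in tumoroids and 0.05 to 0.81 TPM in organoids. Nov reached 0.47, Wisp1 0.38 and Wisp2 0.32 TPM at most, and the order among them was not the same from library to library. The sum over the 5 genes was 86.5, 182 and 250 TPM in tumoroids 1, 2 and 3, and 1.64 to 3.71 TPM in organoids. Cyr61 made up 80.6%, 72.5% and 64.3% of it in these tumoroids and Ctgf 19.4%, 27.3% and 35.3%.

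The proportion of Ctgf to Cyr61 also differed between libraries. Ctgf TPM came to 24.1%, 37.6% and 54.8% of Cyr61 TPM in tumoroids 1, 2 and 3. The T-cM-titled organoids had 27.9%, 18.5% and 21.1%, and the WT-cM-titled organoids 7.25%, 3.14% and 14.5%. The WT-cM-titled values, which rest on 1 to 9 Ctgf reads, lay below all others, and the tumoroid and T-cM-titled values overlapped. The log2 ratio of the TPM values (pseudocount 0.1) was higher by 1.58 in tumoroids and by 1.11 in T-cM-titled organoids than in WT-cM-titled ones, with an exact two-sided permutation p of 0.1 for both, the smallest that 3 against 3 libraries allow. Between tumoroids and T-cM-titled organoids it differed by 0.47 (exact permutation p = 0.3). Adjusted over the 3 comparisons (Benjamini-Hochberg), the exact permutation p-values were 0.15, 0.15 and 0.3, and with 3 against 3 libraries none could have passed 0.05. The permutation took no account of replicate pairs, and the T-cM-titled percentage was the higher in each pair of organoid libraries. With a pseudocount of 1, the differences from tumoroids turned to -0.082 and -0.43, and that between the organoid groups was 0.34.

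**Figure D3:**
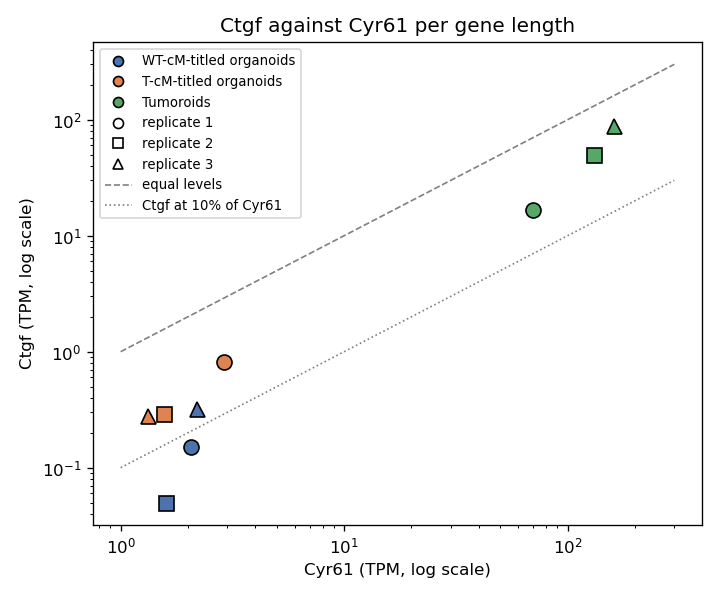
Ctgf against Cyr61 in TPM (both log axes) in each of the 9 libraries, with colours for the groups, symbols for the replicates, and lines where both genes are equal (dashed) and where Ctgf is 10% of Cyr61 (dotted). All libraries lie below the line of equal levels, and the tumoroids lie between 24.1% and 54.8% of it.

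Tumoroids were then compared with each organoid group over all 9 libraries. Cyr61 and Ctgf passed the TPM filter and both were called higher in tumoroids (edgeR quasi-likelihood test, adjusted p under 0.05 and log2 fold change over 1). Of all tested genes, 29.8% were called against WT-cM-titled organoids (18.2% higher and 11.6% lower) and 31.2% against T-cM-titled organoids (19.4% higher and 11.8% lower). Higher calls were 61.1% and 62.1% of the calls in these comparisons, and 78.5% and 78.4% on log2(TPM + 1). Cyr61 had at least 1 TPM in every library, but Ctgf passed the filter only through the tumoroids, where it is high, so that its call and a count of the members that passed carry no weight of their own. Against WT-cM-titled organoids the fitted fold was 41.6 for Cyr61 (log2 standard error 0.38, adjusted p = 1.1e-05 from edgeR) and 181 for Ctgf (log2 standard error 0.79, adjusted p = 8.0e-05). Among the 16208 genes, Cyr61 ranked 705 and Ctgf 273 by log2 fold change in this comparison.

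Against T-cM-titled organoids, which share the tumoroid libraries with the comparison above, Cyr61 rose by 5.44 on the log2 scale (standard error 0.38, 95% interval 4.57 to 6.30, adjusted p = 1.1e-05 from edgeR). Ctgf rose by 6.25 (standard error 0.72, 95% interval 4.62 to 7.87, adjusted p = 1.4e-04 from edgeR). Every tumoroid library lay above every organoid library for both genes, as did 28.2% of all tested genes against WT-cM-titled and 30.1% against T-cM-titled organoids. The size for Ctgf moved with single libraries. Its log2 fold change was 6.85 without tumoroid 3 and 8.40 without WT-cM-titled replicate 3 in the comparison with that group, and 5.60 without tumoroid 3 and 6.90 without T-cM-titled replicate 1 in the other, while that of Cyr61 stayed between 5.11 and 5.82 with any 1 library left out.

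Marker levels of other cell types are given beside these differences. The summed level of 11 fibroblast and mesenchymal markers was 0.47 to 1.92 TPM in tumoroids, 0.40 to 0.66 in WT-cM-titled and 0.28 to 0.52 in T-cM-titled organoids, with 4 to 9 of the 11 at 0 in each library. Of the fibroblast collagen genes, Col3a1 had no read in any library, Col1a2 had at most 1, Col1a1 had 7, 7 and 12 reads in tumoroids 1, 2 and 3 and at most 2 in organoids, and Col6a3 had 1, 0 and 24 reads in these tumoroids and none in organoids. Postn, a matrix gene of the same list, had 42, 6 and 9 reads in the tumoroids and at most 3 in organoids, and Pdgfrb, a receptor gene of fibroblasts and pericytes, had 4, 3 and 52 against 8 to 24. Fap had 4 reads in all over the tumoroids, 12 over the T-cM-titled and 13 over the WT-cM-titled organoids. Some genes of the list thus had more reads in tumoroids and others did not. The 5 smooth muscle and pericyte markers summed to 0.44 to 0.77 TPM in tumoroids and at most 0.05 in organoids, with 17, 10 and 27 reads of Rgs5 in the tumoroids and at most 1 in organoids. The 5 endothelial markers summed to 0.57 to 3.55 TPM in tumoroids and 0.49 to 0.74 in organoids. Among them Cdh5 had 1, 1 and 54 reads in the tumoroids and none in organoids, Vwf had 60, 25 and 64 against 1 to 6, Tek had 4, 7 and 53 against 8 to 19, Pecam1 had 5 in each tumoroid library against 6 to 20, and Kdr was at 0 in all 9 libraries. The 5 immune markers summed to 13.8 to 61.6 TPM in tumoroids and 1.11 to 2.79 in organoids. The leukocyte gene Ptprc was not among those higher, with 4, 19 and 6 reads in the tumoroids and 0 to 16 in organoids. The sum was carried by the macrophage genes Cd68 (101, 150 and 596 reads in tumoroids) and Csf1r (60, 550 and 131 reads), while Cd3e was at 0 in all libraries. The part of stromal, endothelial or immune cells in the CCN levels was not tested.

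Between the organoid groups, compared over 6 libraries in a model that paired them by replicate number, none of the tested members was called, against 1.1% of all tested genes (0.673% called higher under the T-cM title and 0.432% called lower). Neither member had all T-cM-titled libraries above all WT-cM-titled ones, as 5.12% of the tested genes did. At an unadjusted p under 0.05 where 22% of all tested genes lay, the number was 0 with edgeR as fitted here and with DESeq2. It was 1 (Ctgf) with limma voom, and with edgeR when no TPM filter was used or replicate 3 was left out, and none of these made a call. Ctgf had 17, 5 and 6 reads in T-cM-titled against 3, 1 and 9 in WT-cM-titled replicates 1, 2 and 3, higher in 2 of the 3 pairs. Its log2 fold change was 1.24 (standard error 0.65, 95% interval -0.087 to 2.56, adjusted p = 0.27 from edgeR), and the groups overlapped. The value depended on single pairs: it was 0.48 without replicate 1 and 2.38 without replicate 3 (adjusted p = 0.80 and 0.17 from edgeR). Cyr61 was higher in 1 of 3 pairs, and the 95% interval of its log2 fold change ran from -0.69 to 0.53 around -0.08, with the sign turned without replicate 3 (0.27).

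**Figure D4:**
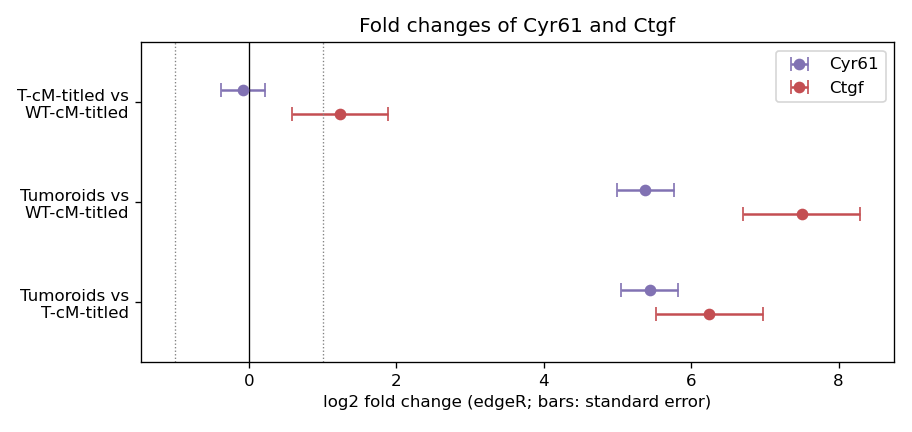
Log2 fold changes of Cyr61 and Ctgf from edgeR in the 3 comparisons, with bars of 1 standard error and dotted lines at log2 fold changes of -1 and 1. Between the organoid groups Cyr61 lies near 0 and Ctgf at 1.24, and both genes lie above 5 in the comparisons with tumoroids.

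Genes around the family were taken from 6 lists of receptors, regulators, other targets and partners, described by their counts and medians. Of 16 genes for CCN receptors on the cell surface, 12 were tested, and 5 were called higher and 1 lower in tumoroids against WT-cM-titled organoids (median log2 fold change 0.78, against 0.15 for all genes). Here and in the lists that follow, counts stand beside 18.2% of all tested genes called higher against WT-cM-titled and 19.4% against T-cM-titled organoids. Counts and medians of list genes that passed the filter in organoids have no matching value, as none was computed over all such genes. Of the 12 receptor genes, 2 passed the filter only through tumoroids, and 4 of the other 10 were called higher. The heparan sulphate proteoglycan gene Sdc4, a coreceptor for CCN proteins, had 242, 222 and 294 CPM in the tumoroids and 81.3 to 94.0 in WT-cM-titled organoids (log2 fold change 1.50, adjusted p = 5.5e-05 from edgeR). The epithelial integrin gene Itgb6, whose product activates latent TGF-beta, had 32.3, 49.4 and 103 CPM against 7.14 to 12.4 (2.65, adjusted p = 7.3e-04). Lrp1, an endocytic receptor for Ctgf, fell, from 149 to 170 CPM in WT-cM-titled organoids to 37.4, 66.4 and 64.2 in tumoroids (-1.52, adjusted p = 5.9e-04). Against T-cM-titled organoids 4 receptor genes were called higher and 1 lower.

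Of the 14 genes of YAP, TAZ, TEAD and SRF control, all tested, 6 were called higher and none lower against either organoid group (medians 0.73 and 0.73), and all 14 had passed the filter in organoids. Wwtr1, which encodes TAZ, stood at 38.7, 39.7 and 68.9 CPM in tumoroids and at 1.16 to 2.48 in WT-cM-titled organoids (log2 fold change 4.73, adjusted p = 3.9e-05 from edgeR). The TEAD factor genes Tead4 (14.7, 30.3 and 28.7 CPM against 1.59 to 2.43) and Tead2 (36.9, 13.9 and 80.7 CPM against 1.46 to 4.07) had log2 fold changes of 3.63 and 4.17. The gene of YAP itself, Yap1, was not called (0.24, adjusted p = 0.27 from edgeR). The difference between Wwtr1 and Yap1 was not tested.

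Of 10 genes of TGF-beta signalling, 9 were tested and 5 called higher against WT-cM-titled and 4 against T-cM-titled organoids (medians 1.01 and 0.49), with none lower. As 2 of the 9 passed the filter only through tumoroids, the counts among the other 7 were 3 and 2, with medians of 0.76 and 0.43. The ligand gene Tgfb3 had no read in the 6 organoid libraries and 21.1, 23.2 and 63.6 CPM in tumoroids, at least 177-fold higher than the highest limit of 3 reads in an organoid library, or 109-fold without tumoroid 3. Tgfb1 rose from 1.16 to 1.76 CPM to 10.3, 6.40 and 14.1 CPM (log2 fold change 2.76, adjusted p = 4.8e-04 from edgeR), and the receptor gene Tgfbr2 to 369, 706 and 382 CPM from 106 to 148 (1.98, adjusted p = 5.0e-04). Of the 4 Smad genes, the inhibitory Smad7 was called against WT-cM-titled (1.01, adjusted p = 0.019 from edgeR) and not against T-cM-titled organoids (0.43, adjusted p = 0.25). Smad3 stood 0.76 higher on the log2 scale against WT-cM-titled organoids (adjusted p = 0.019 from edgeR), under the fold threshold, and 0.49 against T-cM-titled ones (adjusted p = 0.092), and Smad2 and Smad4 were not called either.

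Of 20 YAP target genes outside the CCN family, 18 were tested, and 14 were called higher and 1 lower against either organoid group, with medians of 4.89 and 4.72. In this list 9 of the 18 passed the filter only through tumoroids, and of the 9 that passed in organoids too, 5 were called higher and 1 lower, with medians of 1.03 and 1.27. Ptpn14, a phosphatase gene in a feedback loop on YAP that passed the filter only through tumoroids, stood at 43.6, 96.9 and 83.8 CPM in tumoroids and 0.122 to 0.398 in WT-cM-titled organoids (log2 fold change 7.88, adjusted p = 6.1e-06 from edgeR). The matrix gene Ccdc80, which also passed the filter only through tumoroids, had 19, 62.8 and 41.2 CPM in tumoroids and at most 0.0608 in organoids. Dock5 was the gene called lower (-1.18 and -1.36).

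All 14 Wnt target genes were called higher in tumoroids against either organoid group, with medians of 3.00 and 3.09, and 4 of them passed the filter only through tumoroids, while the other 10 were all called too, with medians of 2.68 and 2.52. Rnf43, a feedback inhibitor of Wnt receptors, stood at 272, 303 and 409 CPM against 48.7 to 61.3 in WT-cM-titled organoids (log2 fold change 2.57, adjusted p = 1.1e-05 from edgeR). The secreted inhibitor gene Notum had 68.0, 56.6 and 106 CPM against 0.0608 to 0.753 (7.75), and the intracellular inhibitor gene Nkd1 24.3, 30.6 and 11.7 CPM against 0.177 to 0.275 (6.68). Notum and Nkd1 passed the filter only through tumoroids. Wisp1 and Wisp2, the CCN genes named after Wnt1, had 0 to 15 reads in the same libraries.

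Of 12 genes for proteins that bind CCN proteins, 8 were tested and 6 called higher and none lower against either organoid group. The medians were 4.33 and 4.42, or 3.46 and 3.57 with genes of no organoid read set to the limit of 3 reads, and 3 of the 8 passed the filter only through tumoroids. Of the other 5, 3 were called higher against either group, with medians of 1.42 and 1.24. The fibronectin gene Fn1 had 32.9, 105 and 651 CPM in tumoroids and no read in WT-cM-titled organoids, at least 1292-fold higher than the limit, or 338-fold without tumoroid 3. Thbs1, the gene of thrombospondin 1, had 73.8, 76.3 and 435 CPM against 2.80 to 3.45 (log2 fold change 5.96, adjusted p = 2.2e-04 from edgeR), and Bmp4, a ligand bound by Ctgf whose gene passed the filter only through tumoroids, had 7.89, 6.88 and 14.6 CPM against at most 0.133 (7.04, adjusted p = 7.4e-05). For Fn1, Thbs1 and Bmp4, as for Cyr61 and Ctgf, tumoroid 3 was the highest library.

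Between the organoid groups the same lists held 1 call, where 1.1% of all tested genes were called. Tead4 stood at 4.55, 6.11 and 4.17 CPM in T-cM-titled and 1.92, 2.43 and 1.59 in WT-cM-titled replicates 1, 2 and 3 (log2 fold change 1.33, adjusted p = 5.2e-05 from edgeR), and it was not called without replicate 2, without the replicate block or on either TPM scale. The receptor, TGF-beta, YAP target, Wnt target and partner lists had no call, and 3 of 12, 2 of 9, 6 of 18, 5 of 14 and 2 of 8 of their tested genes were under an unadjusted p of 0.05 with edgeR, as were 22% of all tested genes. The TPM filter was taken over all 9 libraries here too. Of the tested genes in these lists, 2, 2, 9, 4 and 3 had passed it only through tumoroids, and the 22% includes such genes as well. Limma voom and DESeq2 made no call in these lists either. With no fold change threshold, when 10.1% of all tested genes were called, the gene of smallest p was Lrp1 among the receptors (0.35), Smad7 in the TGF-beta list (0.60), Myof among the YAP targets (0.76), Sp5 among the Wnt targets (0.95) and Bmp7 among the partners (-0.58).

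**Figure D5:**
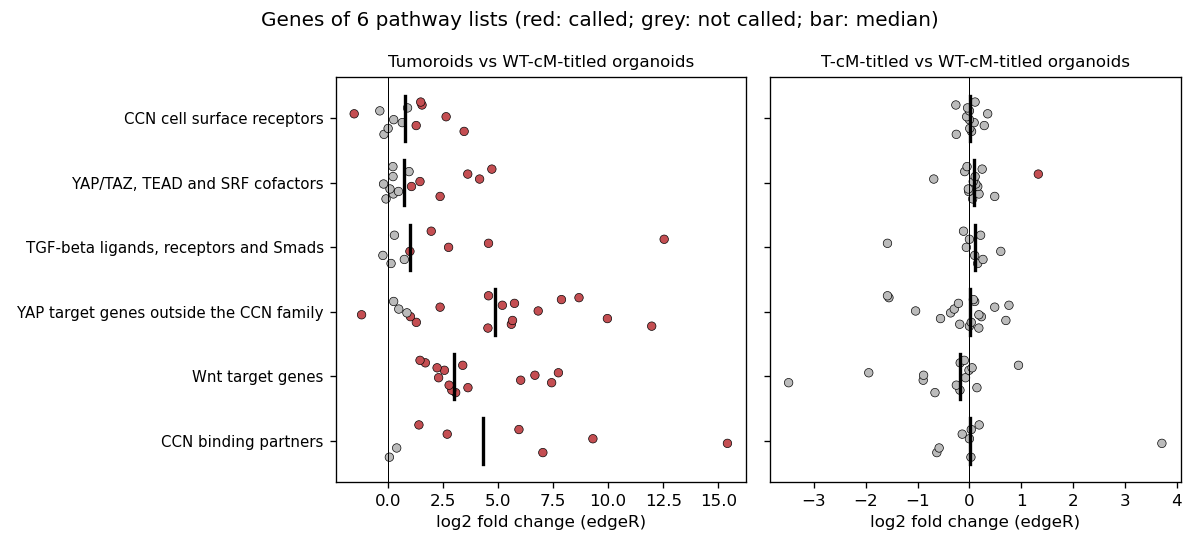
Log2 fold changes (edgeR) of the tested genes of the 6 lists in tumoroids against WT-cM-titled organoids (left) and between the organoid groups, T-cM-titled against WT-cM-titled (right), with called genes in red, the others in grey and a bar at each list's median. On the left the medians lie between 0.73 and 4.89, and on the right Tead4 is the single called gene; values far right include genes with no organoid read, whose fitted fold is not a bound.

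The pattern of the tested members over the 9 libraries was also set against all genes with a mean of at least 1 CPM, by Pearson's r on log2 CPM (prior count 2). The genes most like Cyr61 were Rbm18, Prox1 and Tmem150c, each with r = 0.997, and those most like Ctgf were Capn5 (0.996), Epn3 (0.995) and Zfp93 (0.993). These correlations rest on 9 points that fall into tumoroids and organoids and share their libraries, and r above 0.95 was reached by 8.12% of the 12629 genes for Cyr61 and 5.04% for Ctgf. Likeness of pattern did not mean likeness of size. Rbm18 stood at 32.5, 35.1 and 36.3 CPM in the tumoroids and 20.7 in WT-cM-titled organoids on average, and Prox1 at 57.6, 90.2 and 120 CPM against 0.879.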

How the data were processed

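The authors aligned paired-end reads of stranded poly(A) libraries to the mouse genome mm10 with STAR and deposited raw counts per gene (Gencode release M13), which are not normalised, and TPM values (counts divided by gene length, scaled per library). The counting tool, its strand setting and the lengths are not given in the sources used here. Replicate numbers came from the titles.

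Genes reaching a TPM of 1 in any library were tested in R 4.3.3 with edgeR 4.0.16 (TMM, quasi-likelihood F test, Benjamini-Hochberg adjustment over 16208 genes) and called where the adjusted p was below 0.05 and the log2 fold change beyond 1 in size. The organoid groups were fitted over 6 libraries, with a block for the replicate number. Same-numbered organoid libraries deviated together (r of 0.55, 0.34 and 0.55). For same-numbered tumoroids r was 0.20, 0.12 and -0.06 with T-cM-titled and 0.08, 0.03 and -0.07 with WT-cM-titled organoids. The fits were tried on simulated counts with changes planted only in genes of higher mean count, which does not cover levels as low as those of Ctgf in organoids. The TPM ratio used an exact permutation test in R 4.3.3, and Python 3.11.15 served for tabulation, annotation and figures.

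The members, the gene lists and the tests were chosen with earlier results of these data known, the lists from general knowledge. Named are the members and Wisp3, the 3 genes per list that had the smallest p between tumoroids and WT-cM-titled organoids, 1 with the smallest p between the organoid groups, the 3 genes most like each tested member, and cell type markers. Yap1, Dock5 and the Smad genes were named after their values were seen, and 1 gene of the YAP target list that the rule takes is not reported here. Alternatives were limma 3.58.1, DESeq2 1.42.0, newer edgeR settings, other scalings and filters, TPM in place of counts, each replicate left out, the block left out or added, and the treatment field as label.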

Additional observations from a re-analysis of the deposited data

How the results depend on the processing

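Cyr61 was called in both comparisons with tumoroids under all 17 alternatives. So was Ctgf, which passes the TPM filter only through tumoroids, and with no filter its adjusted p from edgeR was 1.6e-06 and 3.9e-06. No member was called between the organoid groups under 15 alternatives. With any 1 library left out, the log2 fold change was 5.11 to 5.62 for Cyr61 and 6.85 to 8.40 for Ctgf against WT-cM-titled organoids, and 5.17 to 5.82 and 5.60 to 6.90 against T-cM-titled organoids. Between the organoid groups it was -0.45 to 0.27 for Cyr61, positive without replicate 3, and 0.48 to 2.38 for Ctgf. Under the treatment field it was 0.077 for Cyr61 and -1.24 for Ctgf. The filterByExpr setting of edgeR dropped Ctgf there, and DESeq2 gave it no adjusted p. By their labels, tumoroid and organoid samples are linked by a replicate number alone, while the paper states that T-cM came from the sequenced tumoroids. With that number as a block, Cyr61 and Ctgf had 5.37 and 7.46 against WT-cM-titled and 5.40 and 6.00 against T-cM-titled organoids. Leaving the block out gave -0.05 and 1.27 between the organoid groups and changed no call of a member.

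For the organoid groups, dropping the fold change threshold gave 2 calls among receptors, 1 in the TGF-beta list, 1 among YAP targets, 2 among Wnt targets and 1 among partners, when 10.1% of all tested genes were called. The single call of the YAP, TAZ, TEAD and SRF list became 0 on log2(TPM + 1), on log2(TPM + 0.1), without the replicate block and without replicate 2. Leaving out replicates, the Wnt list held 0 to 1 calls and the YAP, TAZ, TEAD and SRF list 0 to 1. Against T-cM-titled organoids, 8 receptor genes were called on both TPM scales, when 5314 on log2(TPM + 1) and 6305 on log2(TPM + 0.1) of the 16208 genes were called. Over all genes between the organoid groups, 179 calls became 104 with voom, 93 with DESeq2, 0 on TPM or without the block, and 383, 6 and 90 without replicates 1, 2 and 3. Pseudocounts for the Ctgf to Cyr61 ratio were chosen after the data were seen: a value of 1 gave -0.082 and -0.43 for tumoroids against WT-cM-titled and T-cM-titled organoids. The causes were not tested. Low reads limit Ctgf in organoids and Nov, Wisp1 and Wisp2 everywhere.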
